A study of Arabidopsis thaliana with 9 samples.

Results

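The genes described here are 36 nuclear Arabidopsis loci that encode the machinery of light capture and carbon fixation, out of 27444 protein-coding genes in the gene table used. They were taken from a fixed list of loci. The list holds 14 LHCB genes and 6 LHCA genes for the antenna proteins of photosystem II and photosystem I, and 2 ELIP genes for early light-induced proteins. It also holds 3 genes for oxygen-evolving subunits of photosystem II, 3 for photosystem I subunits, 4 RBCS genes for the small subunit of Rubisco, and 4 for Rubisco activase and Calvin cycle enzymes. H3K4me3, trimethylation of lysine 4 on histone H3, was mapped by chromatin immunoprecipitation and sequencing (ChIP-seq), and each gene was measured by the bp of called peak over its body and 500 bp on both sides.

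The libraries came from 12-day-old seedlings of atx1/2, of jmj28-2 and of the wild type Col-0, with 2 H3K4me3 libraries for each genotype. All plants are of the Col-0 ecotype and were grown on a sucrose-containing medium (1%) at 23 °C with 16 h of light and 8 h of darkness. ATX1 and ATX2 are H3K4 methyltransferase genes of the Trithorax type, and JMJ28 is a gene for a JmjC-domain protein, a family that includes histone demethylases. The labels name the allele of jmj28 but not those of atx1/2, and are silent on whether replicate libraries were grown and prepared separately. The p-values therefore reflect only the spread among the libraries at hand, part of which may be technical. The lists held 14291 to 14493 peaks, which covered 28.5 to 29.5 Mb and touched the windows of 68.8% to 69.6% of genes. They give no read counts, so the depth of each library is unknown. A list of peaks does not show whether ATX1, ATX2 or JMJ28 is mutated, and the genotype labels could not be checked in this way.

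As background, light-harvesting proteins bind chlorophyll and pass excitation energy to the photosystems. Rubisco fixes carbon dioxide in the Calvin cycle with the ATP and reducing power that the photosystems supply. Nuclear photosynthesis genes are strongly transcribed in green seedlings, and H3K4me3 is found mainly over the 5′ parts of transcribed genes. LHCB1, LHCB2 and RBCS are encoded by several near-identical genes, some of them side by side on the chromosome.

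Most of these genes carried H3K4me3 in every library. A peak lay in the window of 29 of the 36 genes (80.6%) in all 6 libraries, compared with 66.8% of all genes. Of the rest, LHCB2.2, ELIP1 and ELIP2 had a peak in some libraries, and LHCB1.1 (AT1G29920), LHCB1.2 (AT1G29910), LHCB1.4 (AT2G34430) and LHCB2.3 (AT3G27690) had none in any library. Over all genes, 28.1% had no peak in any library and 5.06% had a peak in some libraries only.

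Where the peak was present throughout, it was usually long. Among the 29 genes the median share of the window under a peak, averaged over the libraries, was 81.8%, compared with 54.5% over all genes with a peak in all 6 libraries. The authors' peak scores were used only to rank peaks within a list. The main peak, the one with the most bp in the window, lay at a median percentile of 81.7 within its own list, compared with 56.3 for all such genes. The same held for 77 other photosynthesis genes in 7 lists (further photosystem subunits, electron transport and ATP synthase, the Calvin cycle, chlorophyll synthesis, regulators, and other antenna-like proteins). Of these, 76 had a peak in all 6 libraries, with a median coverage of 80.6% and a median percentile of 77.2. The exception was PORA, which encodes a light-dependent protochlorophyllide reductase and had no peak in any library.

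**Figure D1:**
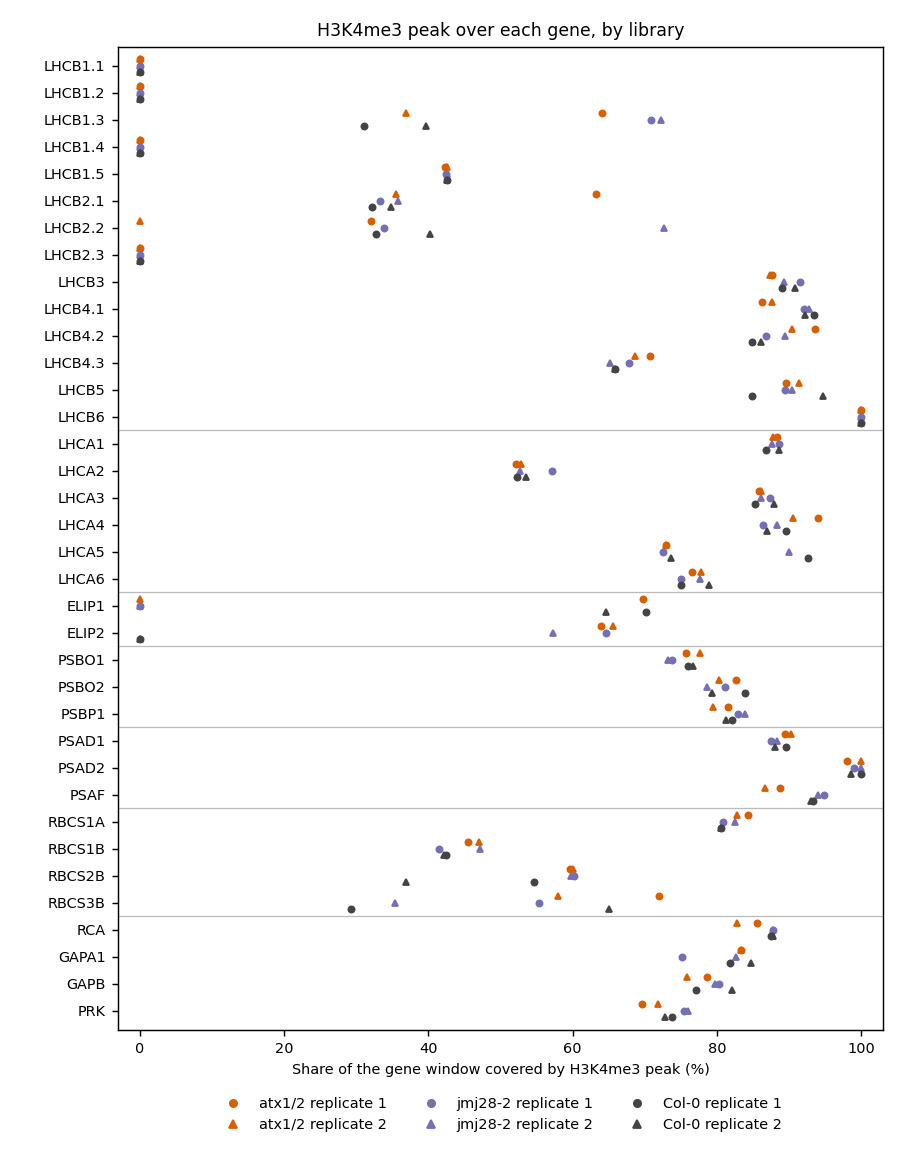
Share of each gene's window (body and 500 bp on both sides, in %) under an H3K4me3 peak, with 1 point per library and grey lines between gene groups. Most genes sit in the right-hand part of the plot in every library, the LHCB1, LHCB2 and chromosome 5 RBCS copies lie lower or at 0, and ELIP1 and ELIP2 are at 0 in some libraries only.

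The antenna genes of photosystem II formed 2 sets. LHCB1 and LHCB2 encode the main subunits of the trimeric antenna and LHCB3 a further subunit of it, while LHCB4, LHCB5 and LHCB6 encode monomeric proteins between the trimers and the core. LHCB3 (AT5G54270) had 2101 to 2202 bp of peak across the 6 libraries, 89.3% of its window on average. LHCB4.2 (AT3G08940) had 2008 to 2215 bp and LHCB5 (AT4G10340) had 2412 to 2691 bp, with average coverages of 88.6% and 90.0%. LHCB6 (AT1G15820) was covered over its full window of 2419 bp in each library, which among the 36 genes was so for LHCB6 alone and was so for 219 of all genes tested (1.13%). Its peak (chr1:5442175-5450537 in atx1/2 replicate 1, TAIR10) was 8232 to 8363 bp wide and touched 5 genes, so it is not the peak of LHCB6 alone. LHCB6 also ranked highest of the 36, at percentiles of 99.8 to 99.9.

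The LHCA genes, which encode the antenna belt of photosystem I, had a peak in every library without exception. LHCA1 (AT3G54890) had 2319 to 2368 bp, LHCA3 (AT1G61520) 2301 to 2371 bp and LHCA4 (AT3G47470) 2326 to 2532 bp. LHCA2 (AT3G61470) was the least covered of the 6, with 1528 to 1674 bp and 53.4% of its window. LHCA5 (AT1G45474) and LHCA6 (AT1G19150) encode proteins that link photosystem I to the NDH complex. LHCA6 had 1757 to 1850 bp. LHCA5 had 1864 and 1867 bp in atx1/2, 1854 and 2300 bp in jmj28-2, against 2370 and 1882 bp in Col-0, so the libraries of jmj28-2 and of Col-0 differed more among themselves than their means did.

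The photosystem subunits were covered as evenly. PSBO1 (AT5G66570) and PSBO2 (AT3G50820), copies of the subunit that stabilises the manganese cluster, had 2115 to 2245 and 2072 to 2210 bp. PSBP1 (AT1G06680), another oxygen-evolving subunit, had 2230 to 2356 bp. PSAD1 (AT4G02770) and PSAD2, which encode the ferredoxin-docking subunit of photosystem I, had 1868 to 1927 and 1918 to 1956 bp, and PSAD2 was fully covered in 3 libraries. PSAF, the plastocyanin-docking subunit, had 2137 to 2338 bp.

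In carbon fixation, RCA (AT2G39730), which encodes Rubisco activase, had 3266 to 3467 bp. GAPA1 and GAPB encode the subunits of chloroplast glyceraldehyde-3-phosphate dehydrogenase. GAPB (AT1G42970) had 2688 to 2907 bp. PRK (AT1G32060), the phosphoribulokinase that regenerates the substrate of Rubisco, had 2397 to 2616 bp. RBCS1A (AT1G67090), which lies apart from the other RBCS genes, had 2022 to 2116 bp (81.9% of its window), whereas the 3 RBCS genes on chromosome 5 averaged 44.3% to 55.2%.

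**Figure D2:**
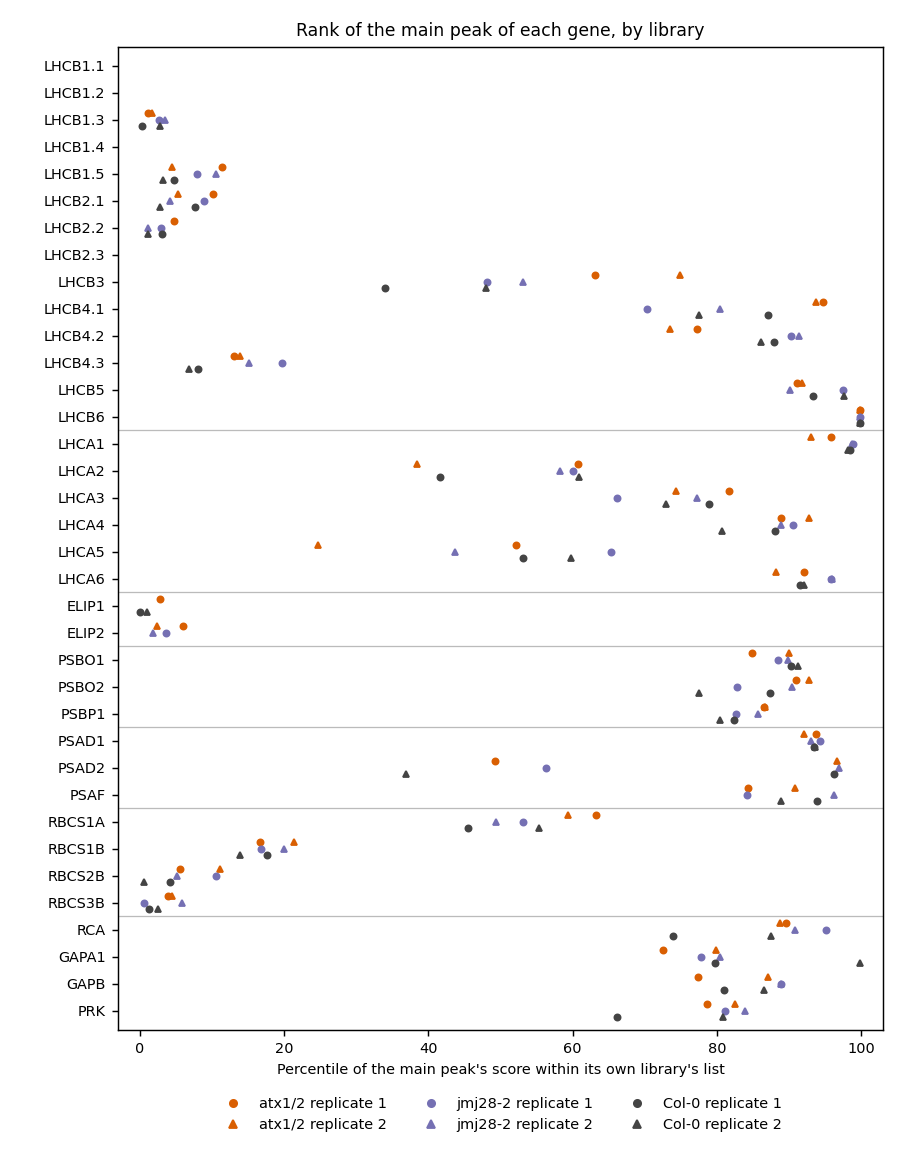
Percentile of the main peak's score within its own library's list, with 1 point per library with a peak. The LHCB1 and LHCB2 genes with a peak, RBCS2B, RBCS3B and the ELIP genes rank lowest, at no more than 11.3 in any library, while LHCB6 ranks at 99.8 to 99.9.

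The closely related LHCB1, LHCB2 and RBCS copies stood apart from the other genes. These are the 5 LHCB1 genes, the 3 LHCB2 genes and RBCS1B, RBCS2B and RBCS3B, 11 in all, of which 6 had a peak in every library, 1 in some and 4 in none. All but LHCB2.3 lie beside another copy with no coding gene between them. The order is LHCB1.2, LHCB1.1 and LHCB1.3 on chromosome 1, LHCB2.2 and LHCB2.1 as well as LHCB1.5 and LHCB1.4 on chromosome 2, and RBCS3B, RBCS2B and RBCS1B on chromosome 5. No peak was shared between any 2 of the 36 genes, tandem copies included. The 6 copies with a peak in all libraries had a median coverage of 48.4% and a median percentile of 6.34, compared with 86.4% and 84.4 for the 23 other genes with a peak in all libraries. This grouping was made with the values known, so the difference is given as a description without a test.

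At LHCB1.3 (AT1G29930) the peaks lay at either end of the gene, not over its middle. LHCB1.3 had 1429 and 822 bp of peak in atx1/2, 1581 and 1610 bp in jmj28-2, against 692 and 886 bp in Col-0. Both jmj28-2 libraries and atx1/2 replicate 1 had a peak at each end, while the other 3 libraries had a peak at 1 end only. The right-hand peak ran on over the neighbouring gene NRPA2, a subunit gene of RNA polymerase I. The scores of the main LHCB1.3 peak were 21.4 to 36.7, close to the lowest score in each list (20.01 to 20.08). The other peak of atx1/2 replicate 1, slightly shorter and so not the main peak, scored 54.9. The change in jmj28-2 was 0.87 ± 0.257 (SE) on the log2(bp + 200) scale and did not pass the test (limma adjusted p = 0.548).

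LHCB1.5 (AT2G34420) had 865 and 872 bp in atx1/2, 869 and 870 bp in jmj28-2, against 871 and 870 bp in Col-0. Its peak also lay over the neighbouring gene RWA3 and ended inside LHCB1.5 between positions 14522888 and 14522895 of chromosome 2 in all 6 libraries, a range of 7 bp. The outer end of the same peak varied far more, since its width was 929 to 1497 bp.

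LHCB2.1 (AT2G05100) had 1577 and 885 bp in atx1/2, 829 and 890 bp in jmj28-2, against 800 and 868 bp in Col-0. The extra length in atx1/2 replicate 1 was a second peak of 627 bp with a score of 24.2. The main LHCB2.1 peak began inside the gene between positions 1823937 and 1823952 of chromosome 2 in all 6 libraries. LHCB2.2 (AT2G05070) had 717 and 0 bp in atx1/2, 757 and 1627 bp in jmj28-2, against 734 and 900 bp in Col-0. Its values overlapped between jmj28-2 and Col-0, and its highest score in any library was 48.2.

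RBCS3B (AT5G38410) had 1910 and 1538 bp in atx1/2, 1469 and 940 bp in jmj28-2, against 777 and 1728 bp in Col-0. As at LHCB1.3, there were peaks on either side of an uncovered middle, both present in 4 libraries and 1 of them missing in jmj28-2 replicate 2 and in Col-0 replicate 1. The left one ended between 15377649 and 15377672 and the right one began between 15377899 and 15377904 of chromosome 5, each in 5 libraries. RBCS2B (AT5G38420) had 1291 and 1301 bp in atx1/2, 1304 and 1295 bp in jmj28-2, against 1182 and 799 bp in Col-0. All 4 mutant libraries lay above both Col-0 libraries, but the Col-0 libraries differed by more than the groups and the limma adjusted p was 0.689 in atx1/2 and 0.710 in jmj28-2. Without Col-0 replicate 1, which leaves 799 bp as the only Col-0 value, both changes passed (log2 0.58 in atx1/2 with limma adjusted p = 0.00835, and 0.59 in jmj28-2 with adjusted p = 0.00982). RBCS1B (AT5G38430) had the highest scores of the 3, 132 to 245, and 1306 to 1489 bp in all libraries.

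Peak ends that lay inside a gene in at least 5 libraries were compared between both sets, grouping ends within 100 bp of the next. For the LHCB1, LHCB2 and chromosome 5 RBCS copies, 8 such ends had a median range of 19 bp over the libraries, from 5 to 97 bp. The grouping leaves out the RBCS2B end of Col-0 replicate 2, at 15381317, while the other libraries had it between 15381697 and 15381712. For other genes, 6 ends (in LHCB4.3, LHCA2, LHCA6, PSBO1, GAPB and PRK) had a median range of 108 bp, from 46 to 219 bp. How reads that match several copies were treated is not given in the sources used here, and its part in the missing peaks and in the fixed ends was not tested.

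**Figure D3:**
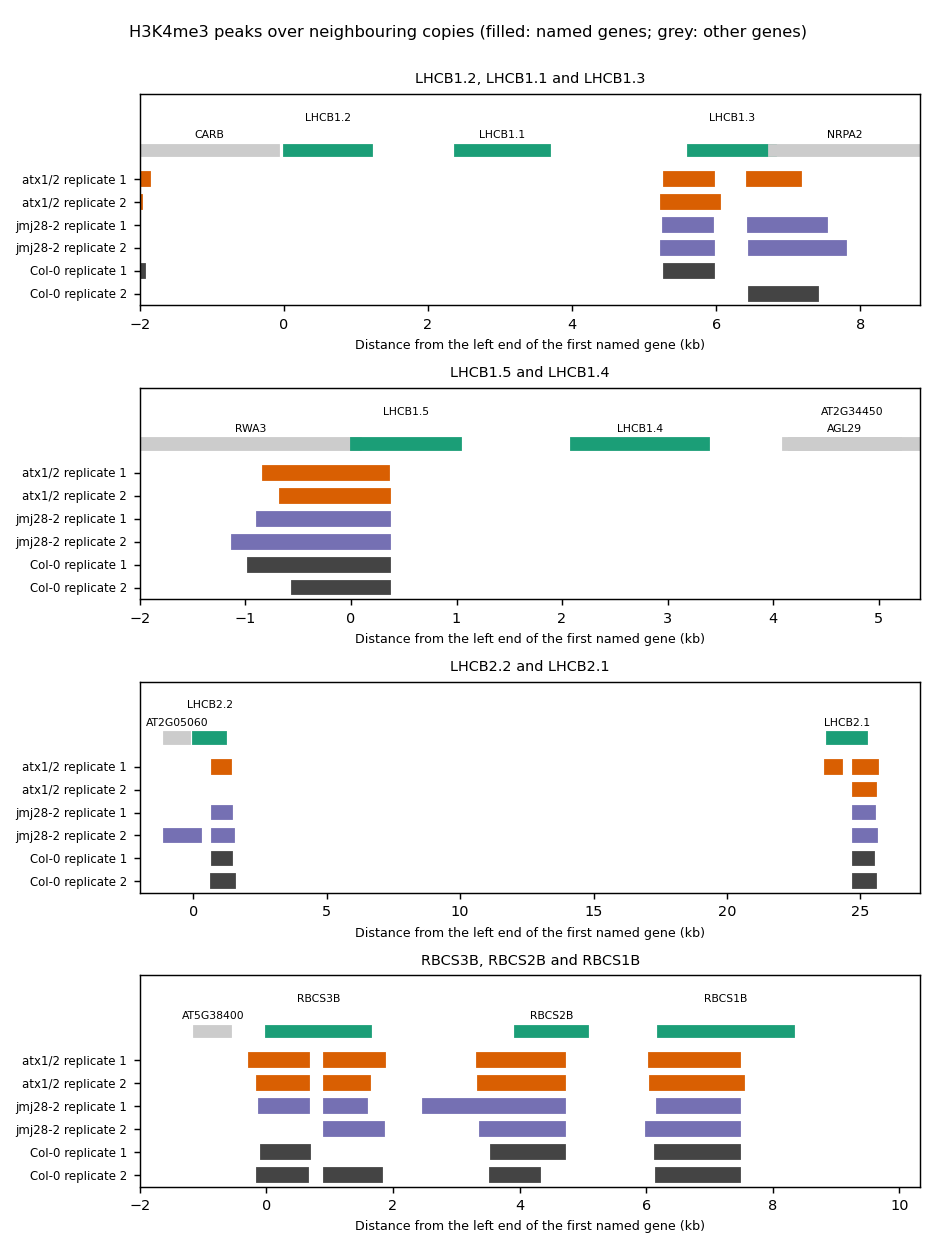
H3K4me3 peaks of each library over 4 stretches of neighbouring copies, with genes drawn on top (green for LHCB and RBCS copies, grey for others) and distance in kb from the left end of the first copy. LHCB1.1, LHCB1.2 and LHCB1.4 have no peak in any row, and the inner ends of the peaks at LHCB1.5, LHCB2.1 and RBCS3B line up between rows while their outer ends do not.

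ELIP2 had a weak peak in all 4 mutant libraries and none in Col-0, and no other of the 36 genes was called in either mutant. Differences were tested with limma on log2(bp of peak in the window + 200), with all 6 libraries in 1 fit over the 19396 genes with a peak in at least 2 libraries and a Benjamini-Hochberg adjusted p threshold of 0.05. The filter left 32 of the 36 genes. In atx1/2 against Col-0, 1 of 32 was called, beside 1.6% of all genes tested (0.779% of all genes were called as longer in atx1/2). In jmj28-2 against Col-0, 1 of 32 was called, beside 1.24% (0.345% of all genes were called as longer in jmj28-2). At an unadjusted p under 0.05 the counts were 4 of 32 in atx1/2, beside 8.68% of all genes tested, and 3 of 32 in jmj28-2, beside 8.06%. A share of 1 in 32 is near the background, so the count itself sets these genes apart in neither mutant. Both comparisons share the Col-0 libraries, so the 2 calls of ELIP2 are not independent.

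ELIP2 (AT4G14690) encodes a chlorophyll-binding protein that is induced by strong light and protects the photosystems. ELIP2 had 1332 and 1368 bp of peak in atx1/2, 1346 and 1193 bp in jmj28-2, against 0 and 0 bp in Col-0. All 4 mutant libraries had a peak and neither Col-0 library did, a pattern found in 38 of all genes tested (0.196%). The peak lay over the whole gene body and touched no other gene (chr4:8418101-8419432 in atx1/2 replicate 1 and chr4:8418144-8419489 in jmj28-2 replicate 1, TAIR10). The limma adjusted p was 9.32e-05 in atx1/2 and 0.00013 in jmj28-2. No fold change is given because ELIP2 is listed at 0 in Col-0, and values of 0 in both Col-0 libraries have no spread, which makes such a p too small. ELIP2 also passed the filter through the mutant libraries alone, so the pattern of present and absent peaks is the measurement and the p adds no support to it. The peaks were weak, with scores of 59.2 and 32.1 in atx1/2 and 40.8 and 28.5 in jmj28-2, at percentiles of 1.88 to 6.03. A signal in Col-0 just under the authors' threshold would be listed as no peak, so the absence of H3K4me3 in Col-0 is not shown.

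ELIP1 (AT3G22840), a close relative with the same role, had another pattern. ELIP1 had 1579 and 0 bp in atx1/2, 0 and 0 bp in jmj28-2, against 1591 and 1463 bp in Col-0. Neither jmj28-2 library had the peak, both Col-0 libraries did, and the atx1/2 libraries differed from each other. Such a loss, with the peak present in 2 of 2 Col-0 and 0 of 2 jmj28-2 libraries, was found in 0.856% of all genes tested. The change did not pass limma in jmj28-2 (adjusted p = 0.617) or in atx1/2 (adjusted p = 0.781), where the split between the atx1/2 libraries enters the common spread. Fitting only the jmj28-2 and Col-0 libraries gave an adjusted p of 0.000917 for jmj28-2 in limma. In that fit ELIP1 passed the filter through Col-0 alone. Both jmj28-2 values of 0 have no spread, so this p is too small and adds no support. Leaving out atx1/2 replicate 1 gave a log2 change of -3.11 in jmj28-2 and in atx1/2. Leaving out atx1/2 replicate 2 gave -3.11 in jmj28-2 and 0.04 in atx1/2. The size of -3.11 is set by the pseudocount. With equally many top-scoring peaks per list, ELIP1 had 1579 and 0 bp in atx1/2, 0 and 0 bp in jmj28-2, against 0 and 1463 bp in Col-0. The difference then had limma adjusted p of 1 in atx1/2 and 0.83 in jmj28-2, and in atx1/2 its direction turned (log2 0.05, against -1.53 with the full lists). Its scores were 35.3 in atx1/2 replicate 1, and 20.2 and 23.8 in Col-0, so the Col-0 peaks lay just above the lowest score kept in the lists.

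**Figure D4:**
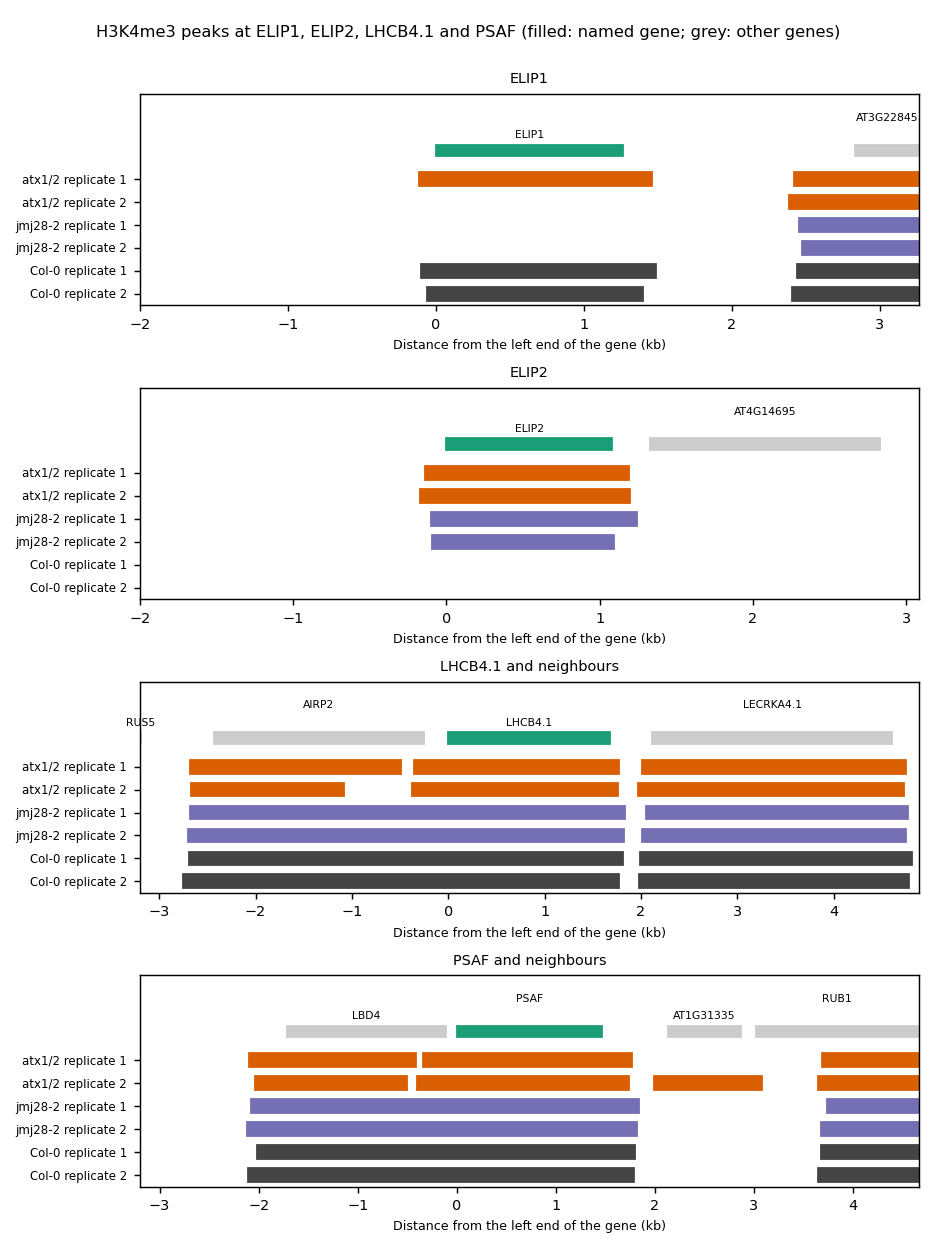
H3K4me3 peaks of each library at ELIP1, ELIP2, LHCB4.1 and PSAF, with genes drawn on top and distance in kb from the left end of the named gene. ELIP2 has a peak in the 4 mutant rows only, ELIP1 in atx1/2 replicate 1 and both Col-0 rows, and the peaks at LHCB4.1 and PSAF are separate from the peak to their left in atx1/2 but joined to it in jmj28-2 and Col-0.

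The other photosynthesis genes showed no call in either mutant. None of the 76 tested passed limma in atx1/2 or in jmj28-2, where 3 of 76 had an unadjusted p under 0.05 in each, beside 8.68% of all genes tested in atx1/2 and 8.06% in jmj28-2. PSBQ2, another oxygen-evolving subunit of photosystem II, had the lowest adjusted p in jmj28-2 (log2 change 0.11 ± 0.0176 SE, limma adjusted p = 0.188). In the list of Calvin cycle genes the largest change was that of HCEF1, the chloroplast fructose bisphosphatase, with 0.13 in atx1/2 and 0.10 in jmj28-2 (limma adjusted p = 0.493 and 0.651). Largest among the chlorophyll synthesis genes were CAO, chlorophyllide a oxygenase, at 0.21 in atx1/2 and CHLH, a magnesium chelatase subunit, at 0.16 in jmj28-2 (limma adjusted p = 0.808 and 0.754). Among the regulators they were GLK2 at 0.10 in atx1/2 and PIF3 at 0.09 in jmj28-2, both transcription factor genes (limma adjusted p = 0.726 and 0.764). The largest changes in the 4 lists of other photosystem II subunits, photosystem I subunits, electron transport, and antenna-like proteins lay at 0.05 for PSBW, -0.06 for PSAE1, 0.09 for PGRL1A and -0.09 for LHCB7 in atx1/2. In jmj28-2 they were the change of PSBQ2, -0.07 for PSAE1, -0.08 for FNR1 and -0.10 for OHP1.

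Most of the 32 genes tested barely changed in length. The log2 difference was under 0.1 in size for 23 of 32 genes in atx1/2 against Col-0 (71.9%, beside 81.7% of all genes tested) and for 27 of 32 in jmj28-2 against Col-0 (84.4%, beside 82.3%). The median change of the 32 was 0.0007 in atx1/2 and 0.0069 in jmj28-2, beside -0.0091 and -0.0156 over all genes tested. Summed over the 36 genes, peak covered 62.0 ± 2.97 kb in atx1/2, 62.0 ± 0.741 kb in jmj28-2 and 60.7 ± 0.659 kb in Col-0 (SD, n = 2 each). These sums are a description, without a test. The length of peak cannot exceed the window, which limits how far a well covered gene can lengthen. Median coverage was 81.8% for listed genes with a peak in all 6 libraries, beside 54.5% for all such genes. An unchanged length does not show an unchanged level of H3K4me3.

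The largest changes among the 32 genes were at the ELIP genes and at LHCB and RBCS copies, with GAPA1 in jmj28-2. In atx1/2 the 6 largest were those of ELIP2, ELIP1, LHCB2.2, RBCS3B (log2 0.48 ± 0.408 SE, limma adjusted p = 0.799), LHCB2.1 (0.43 ± 0.255, adjusted p = 0.764) and LHCB1.3 (0.39 ± 0.257, adjusted p = 0.777). In jmj28-2 they were those of ELIP1, ELIP2, LHCB1.3, LHCB2.2, RBCS2B and GAPA1. GAPA1 (AT3G26650) had 2655 and 2653 bp in atx1/2, 2392 and 2631 bp in jmj28-2, against 2606 and 2697 bp in Col-0, and the difference of -0.07 ± 0.0501 (SE) in jmj28-2 rests on 1 jmj28-2 library (limma adjusted p = 0.774).

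**Figure D5:**
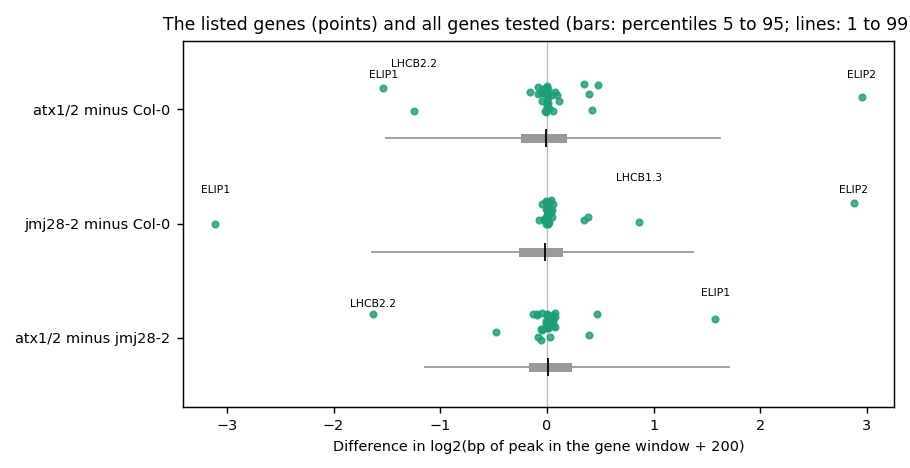
Difference in log2(bp of peak in the window + 200) for each of the 32 listed genes tested (points) in 3 comparisons, with bars for percentiles 5 to 95 of all genes tested, thin lines for percentiles 1 to 99 and ticks for their medians. ELIP2 lies far right against Col-0 and ELIP1 far left in jmj28-2, at distances set by the pseudocount because 1 genotype is at 0, while most points lie within 0.1 of 0.

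Some genes had lengths that did not overlap between genotypes without passing the test. In atx1/2 the window held more peak than in either Col-0 library at 8 of 32 genes, beside 13.7% of all genes tested, and less at 7 of 32, beside 23.1%. In jmj28-2 it held more at 8 of 32, beside 10.1%, and less at 2 of 32, beside 26%. LHCB4.2 is an example of the size of these differences. LHCB4.2 had 2215 and 2141 bp in atx1/2, 2055 and 2118 bp in jmj28-2, against 2008 and 2040 bp in Col-0, so the groups did not overlap (limma adjusted p = 0.469 in atx1/2 and 0.774 in jmj28-2).

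LHCB4.1 (AT5G01530) was the member of the LHCB family with the lowest adjusted p in atx1/2. LHCB4.1 had 2313 and 2352 bp in atx1/2, 2470 and 2489 bp in jmj28-2, against 2508 and 2475 bp in Col-0. Both atx1/2 values lay below the other 4, by -0.09 ± 0.0188 (SE) on the log2 scale against Col-0 (limma adjusted p = 0.308). The gene body of LHCB4.1 was under peak over all its 1683 bp in every library, so the shortfall lay in the flanks. The whole peak differed more than its part in the window. It was 2131 and 2140 bp wide in atx1/2, 4517 and 4515 bp in jmj28-2, against 4506 and 4524 bp in Col-0. In jmj28-2 and Col-0 a single peak ran over LHCB4.1 and its left-hand neighbour AIRP2, which encodes a RING-type E3 ubiquitin ligase (chr5:206175-210680 in Col-0 replicate 1, TAIR10). In atx1/2 the LHCB4.1 peak was separate (chr5:208506-210636 in replicate 1) but still reached into AIRP2. AIRP2 also had a weaker peak, 134 bp away in replicate 1 and 704 bp away in replicate 2. Over the AIRP2 body there were 2046 and 1476 bp in atx1/2 from both peaks together, 2180 and 2180 bp in jmj28-2, against 2180 and 2180 bp in Col-0. The change in atx1/2 did not pass limma fitted on gene bodies (adjusted p = 0.785) or on windows (adjusted p = 0.681).

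PSAF (AT1G31330) showed the same arrangement. PSAF had 2190 and 2137 bp in its window in atx1/2, 2338 and 2320 bp in jmj28-2, against 2300 and 2294 bp in Col-0, a log2 change of -0.08 ± 0.0196 (SE) in atx1/2 against Col-0 (limma adjusted p = 0.391). The gene body of PSAF was under peak over all its 1466 bp in every library, so here too the shortfall lay in the flanks. Its peak was 2103 and 2137 bp wide in atx1/2, 3916 and 3942 bp in jmj28-2, against 3813 and 3902 bp in Col-0. The joined peak also covered LBD4, a LOB-domain gene. In atx1/2 the PSAF peak still reached into LBD4. LBD4 also had a peak of its own there, 76 and 104 bp away, with scores of 122 and 109. Over the LBD4 body there were 1534 and 1506 bp in atx1/2 from both peaks together. In jmj28-2 there were 1610 and 1610 bp, against 1610 and 1610 bp in Col-0, the whole body. The limma adjusted p in atx1/2 was 0.118 fitted on gene bodies and 0.777 fitted on windows. The body values of jmj28-2 and Col-0 have no spread, which makes the p on bodies too small. A main peak more than 1.5 times narrower in both atx1/2 libraries than in either Col-0 library was found in these 2 of 29 genes, beside 0.654% of all genes with a peak in all 6 libraries, and against jmj28-2 in LHCB4.1 and PSAF too, beside 0.256%. This measure was chosen after the values were seen, and none of the 29 was narrower in this way in jmj28-2 against Col-0, beside 0.692%.

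Joining and splitting of neighbouring peaks also occurred within genotypes. The width of the main peak varied by more than 1.5 times over the 6 libraries at 9 of the 29 genes and by at most 1.2 times at 18. The share over all genes was not computed. These 9 are not all cases of joining within a genotype. They include LHCB4.1 and PSAF, which differed between genotypes, and LHCB1.3, whose main peak was not at the same end in every library. They also include LHCB1.5 and RBCS2B, where the extent of a single peak varied. PSAD2 (AT1G03130) had a main peak of 2885 and 5549 bp in atx1/2, 2753 and 5652 bp in jmj28-2, against 5645 and 2806 bp in Col-0, so a wide and a narrow form occurred in each genotype. Peaks of 5551 bp at GAPA1 and 4101 bp at LHCB5 were found in Col-0 replicate 2, and of 4434 bp at LHCA6 in jmj28-2 replicate 1. LHCB5 had a wide peak in jmj28-2 replicate 1 too, at 3970 bp, and the other libraries had narrower ones at these genes.

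LHCB4.3 (AT2G40100), which encodes a variant of the LHCB4 protein, had the weakest peak outside the copies and the ELIP genes. LHCB4.3 had 1978 and 1919 bp in atx1/2, 1896 and 1825 bp in jmj28-2, against 1843 and 1841 bp in Col-0. The log2 change of 0.07 ± 0.0272 (SE) in atx1/2 and of 0.01 ± 0.0272 in jmj28-2 did not pass limma (adjusted p = 0.583 and 0.942). The scores of its main peak were 134 and 146 in atx1/2, 200 and 146 in jmj28-2, and 73.6 and 60.6 in Col-0. With only peaks of a score of 100 or more kept, the Col-0 peaks over the gene body fall away, and the change was called in both mutants (log2 1.89 in atx1/2 with limma adjusted p = 6.15e-05, and 1.83 in jmj28-2 with adjusted p = 8.1e-05). This minimum lies between the Col-0 scores and the mutant scores, so the calls follow from where it was set and add no support. ELIP1 and ELIP2 have no peak in that setting. OHP1, an antenna-like protein with a single helix, is the only other photosynthesis gene called there, with scores of 131 and 134 in atx1/2, 119 and 121 in jmj28-2, and 69.7 and 88.1 in Col-0. The minimum lies between these scores too, and OHP1 is then at 0 in both Col-0 libraries, without spread. Scores of different lists are not on a scale shown to be common, and no score was tested.

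Between the mutants none of the 32 genes was called in atx1/2 against jmj28-2, beside 1.28% of all genes tested in limma, and 4 had an unadjusted p under 0.05, beside 7.1% of all genes tested. PSAF had the lowest value, with a log2 difference of -0.10 ± 0.0196 (SE) and limma adjusted p = 0.346. Windows held more peak in both atx1/2 libraries than in either jmj28-2 library at 8 of 32 genes, beside 20.7% of all genes tested, and less at 9 of 32, beside 14.9%. Among the other photosynthesis genes none of 76 was called in limma and 4 of 76 had an unadjusted p under 0.05, beside the same 7.1%. The lowest was PORC, a protochlorophyllide reductase like PORA. PORC had 2757 and 2754 bp in atx1/2, 2404 and 2467 bp in jmj28-2, against 2606 and 2597 bp in Col-0, and its difference between the mutants had a limma adjusted p of 0.0783.

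Replicate libraries differed less at the 32 genes than over the genome. The median absolute log2 difference between the libraries of a genotype was 0.0326 in atx1/2, 0.0222 in jmj28-2 and 0.0276 in Col-0, beside 0.0442, 0.0437 and 0.0469 over all genes tested. The largest was 3.15, at ELIP1 in atx1/2. The main peak lay on 1 gene in every library that had it at 11 of the 32 genes, on 2 or more genes at 18, and varied at 3, so at most of these genes the peak is shared with a neighbour. Of 6 root marker genes 4 had no peak in any library. SCR and WOX5 had a peak in all 6 libraries, with window coverages from 22.4% to 90.7%. Of 5 seed storage genes 3 had a peak in all 6 libraries, with window coverages of 9.01% to 43.5%. These counts are a description and do not show which tissues the libraries came from.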

How the data were processed

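The authors deposited 1 peak list for each of 6 H3K4me3 libraries, per the labels, with peak starts and ends in bp and the authors' score for each peak. The submitters' processing notes list TAIR10 as the build and MACS 1.4, Bowtie2 2.2.8, deepTools 2.4.1 and ChIPseeker as tools, with no step given for any of them, and no label names a control library. The series has 3 H3 samples, not analysed here. Each list belongs to 1 library, and how its peaks were called is not described. Peak starts were counted from 1.

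Genes came from RefSeq (TAIR10.1), in a table without strand, so printed coordinates are those of peaks only. In 112 of 112 windows of 1000 kb the table fitted the peaks best within a shift of 400 bp. All 124 listed loci matched the table. The genes described, the comparison lists and the measures were chosen with earlier results of these data known.

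The bp of peak per window entered limma (version 3.58.1, R 4.3.3, 3 residual degrees of freedom) as described above, with a pseudocount of 200 bp. A log2 change on this scale understates the change of short windows. Plots were made with matplotlib 3.10.9 and tables with pandas 2.3.3 and numpy 2.4.6 in Python 3.11.15. In a simulated comparison of jmj28-2 against Col-0 over 19395 genes, 96 of 100 removed peaks, 30 of 50 windows multiplied by 0.7, 27 of 50 multiplied by 1.3 and 2 of 18143 unchanged windows were called. A factor of that size at a single gene can therefore be missed. Removed peaks were absent from both simulated jmj28-2 libraries, without spread, so their count was largely fixed in advance. Lengths multiplied by 1.3 were not capped at the window, although many listed genes were already covered over most of it.

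Values in every library are given for genes past the threshold, for genes without a peak in some library and for the 6 largest changes per mutant. From the other lists the largest change per mutant is named. LHCB4.1, PSAF, LHCB4.3, PSAD2, LHCB4.2, LHCB1.5, LHCA5, OHP1, PORC and the neighbours AIRP2 and LBD4 were added after their values were seen. The 20 alternatives tried included other windows, pseudocounts, score minimums, filters, fits and leaving out each library, and 1 of them was chosen after seeing the data.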

Additional observations from a re-analysis of the deposited data

How the results depend on the processing

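In the 18 alternatives that gave ELIP2 a value the limma adjusted p ran from 1.71e-07 to 0.00549 in atx1/2 and from 2.16e-07 to 0.00517 in jmj28-2, but each has Col-0 at 0 without spread, so they are no sign of stability. Requiring a peak in all 6 libraries removes ELIP2 by construction and left 97, 65 and 76 genes called in atx1/2 against Col-0, jmj28-2 against Col-0 and atx1/2 against jmj28-2, compared with 311, 241 and 249, with 0 of the listed genes in each. At a score of 100 or more 1 other photosynthesis gene, OHP1, was called in each mutant, with Col-0 at 0. With only the 4 libraries of the comparison fitted, 2 listed genes were called in jmj28-2. They were ELIP1 and ELIP2, each with 1 genotype at 0 without spread. For 10 other named genes, 566 results stayed on the same side of the threshold and 9 passed it. These 9 were at RBCS2B, LHCB4.3 and ELIP1 in settings named above, and at ELIP1 between the mutants without atx1/2 replicate 2. Each pass at ELIP1 had a genotype at 0 without spread, and those at RBCS2B had a lone Col-0 library.

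Leaving out 1 library at a time gave 262 to 387 genes called in atx1/2, 266 to 321 in jmj28-2 and 201 to 342 between the mutants, and 1 to 2, 1 to 2 and 0 to 1 of the listed genes. The median change of the listed genes ranged from -0.0084 to 0.0079 in atx1/2 and from 0.0010 to 0.0210 in jmj28-2. A lone library was assumed to vary like the other groups. The jmj28-2 median was 0.0000 without flanks, 0.0095 with 1000 bp, 0.0047 with a pseudocount of 500 bp and 0.0036 at a score of 100 or more. Centring each library gave 0.0170 in atx1/2 and 0.0282 in jmj28-2.

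The sums over the listed genes in atx1/2, jmj28-2 and Col-0 were 45.294, 44.801 and 44.174 kb without flanks, 73.34, 74.267 and 71.858 kb with 1000 bp, and 54.829, 53.684 and 52.154 kb at a score of 100 or more. With equally many top-scoring peaks per list Col-0 had 59.556 kb.

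Over all genes tested, replicate differences were barely correlated between genotypes. The correlations were 0.010 between atx1/2 and jmj28-2, 0.025 between atx1/2 and Col-0 and 0.011 between jmj28-2 and Col-0. Whether libraries with the same replicate number were grown or prepared together cannot be read from these values. With the replicate block 275 genes were called in atx1/2, 211 in jmj28-2 and 213 between the mutants, with 1, 1 and 0 of the listed genes.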

Other observations

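Some lists also held peaks on the chloroplast genome, which carries the plastid partners of these nuclear genes and no histones. The atx1/2 libraries had 0 and 0 such peaks, the jmj28-2 libraries 6 and 3, and the Col-0 libraries 1 and 3. They covered 31.6 and 12.4 kb in jmj28-2, and 2.03 and 4.68 kb in Col-0. In jmj28-2 replicate 1 they lay over psbA, which encodes a reaction centre protein of photosystem II, and over rbcL, the large subunit of Rubisco, among others. Both jmj28-2 libraries had a peak from ccsA to ndhE, with scores of 236 and 126, and a peak over rpoB to psbM, with scores of 51.3 and 53.1. The chloroplast peak of Col-0 replicate 1 lay within the first of these stretches, over ccsA and ndhD, with a score of 25.5. These counts are a description, without a test. Plastid DNA in the libraries was not measured, and its part in these peaks was not tested.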
